A study of Mus musculus with 2 samples.

Results

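The 6 microRNA (miRNA) genes Mir770, Mir673, Mir493, Mir337, Mir540 and Mir665 lie on the plus strand of mouse chromosome 12, inside the long noncoding RNA gene Meg3 or between it and Rtl1. They were chosen by symbol in the GENCODE M21 annotation and by this position, and they are 6 of the 2202 miRNA genes listed in the deposited count files. Cortex from the left side of the brain was taken from male B6CASTF1/J mice aged 10 days, which are hybrids between 2 inbred strains, B6 and CAST. There is 1 group with 2 replicates, numbered 1 and 2 under the same source label, each with 1 small RNA library. Beyond the strain name, in which B6 stands first, the labels do not state the direction of the cross. No other genotype, age, sex or treatment was measured, so no condition is compared, and any p-value concerns the spread between these libraries.

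miRNAs are cut from the stem of a hairpin in a longer transcript, first by Drosha in the nucleus and then by Dicer in the cytoplasm, and a mature strand guides Argonaute to messenger RNAs that pair with its seed. The Dlk1-Dio3 region is imprinted. Its protein-coding genes, Dlk1, Rtl1 and Dio3, are expressed from the paternal chromosome, while Meg3, Rian, Mirg and the miRNAs along them are expressed from the maternal chromosome, and the region's noncoding RNAs are known to be abundant in brain. The human genome carries named counterparts of Mir770, Mir493, Mir337 and Mir665. In human cells, miR-493 is known to repress the growth factor receptor IGF1R, and miR-337-3p was described as a regulator of STAT3.

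The mature sequences show which messages each hairpin could address, and are given 5′ to 3′ with the seed, bases 2 to 8, in capitals. All 6 genes were matched by symbol in the RefSeq miRNA table (build GRCm38.p6), and all lines are from the plus strand of chromosome 12.
mmu-miR-770-5p: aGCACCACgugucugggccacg
mmu-miR-770-3p: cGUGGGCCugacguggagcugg
mmu-miR-673-5p: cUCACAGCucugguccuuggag
mmu-miR-673-3p: uCCGGGGCugaguucugugcacc
mmu-miR-493-5p: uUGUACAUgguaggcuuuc
mmu-miR-493-3p: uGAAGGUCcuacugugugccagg
mmu-miR-337-5p: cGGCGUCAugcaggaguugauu
mmu-miR-337-3p: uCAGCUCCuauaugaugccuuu
mmu-miR-540-5p: cAAGGGUCacccucugacucugu
mmu-miR-540-3p: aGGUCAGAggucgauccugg
mmu-miR-665-5p: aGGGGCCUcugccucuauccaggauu
mmu-miR-665-3p: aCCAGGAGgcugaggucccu

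The 12 mature strands carried 12 different seeds, so no seed was shared within the set. Of the 12, 10 had a seed found in no other mature miRNA of the table, which holds 1679 mature names. The seed of miR-673-5p also occurs in miR-6985-3p, whose hairpin gene Mir6985 on chromosome 19 had 14 reads in replicate 1 and 5 in replicate 2. The seed of miR-540-3p also occurs in miR-6915-5p, from Mir6915 on chromosome 10, with 15 and 12 reads. Both of those hairpins had far fewer reads than Mir673 and Mir540. The files count reads per hairpin and not per arm, so which part of a hairpin gave the reads is not known here.

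The hairpins are spread over 22716 bases. Mir770, at chr12:109563692-109563785 (mm10), is the only member inside the Meg3 gene, which spans chr12:109541001-109571726. It overlaps 4 Meg3 transcripts and is exonic in 1 of them, where it lies within the terminal exon of 13087 bases, and intronic in the other 3. Mir673, at chr12:109571990-109572080, starts 264 bases after the annotated end of Meg3. Mir493, at chr12:109580233-109580315, follows 8153 bases later. Mir337 (chr12:109585789-109585885), Mir540 (chr12:109586080-109586146) and Mir665 (chr12:109586314-109586407) form a tight group of 619 bases, which ends 2786 bases before the annotated 3′ end of Rtl1, a retrotransposon-derived gene on the opposite strand. Mir673, Mir493, Mir337, Mir540 and Mir665 overlap no other annotated gene on their own strand in M21.

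The libraries held 9089257 reads in replicate 1 and 7432614 in replicate 2, of which 2677910 (29.5%) and 1750076 (23.5%) matched a listed miRNA gene in the sense direction. Levels are given as CPM, counts scaled to 1000000 of those assigned sense reads, and 3 reads equal 1.12 and 1.71 CPM. Of the 2202 genes, 442 reached 2 CPM in both libraries. Markers of the labelled tissue were present: the 6 neuron-associated genes fixed for this check were all detected, with summed levels of 44413 and 34757 CPM. Mir132 and Mir138-1 were higher in replicate 2, and the other neuron-associated genes in replicate 1. The sums were 834 and 1423 CPM for 3 oligodendrocyte-associated genes, 8755 and 6881 CPM for 5 microglia and leukocyte genes, and 13639 and 15214 CPM for 3 endothelial and mural genes. Mir342 alone gave 7129 and 5283 CPM of the microglia and leukocyte sum. In that list Mir342 and Mir150 were higher in replicate 1, and Mir146 and Mir223 in replicate 2. The 3 erythroid genes summed to 814 CPM in replicate 1 and 56.6 CPM in replicate 2. Of these, Mir451a had 737 and 20.6 CPM and Mir144 had 52.3 and 10.3 CPM, while Mir486 was level at 25.4 and 25.7 CPM. The 12 markers of liver, pancreas, muscle and epithelium summed to 331 and 379 CPM. Every gene of these lists was detected, those of other tissues included, so detection alone does not tell the tissue. The part of cell makeup in the differences between libraries given below was not tested.

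All 6 genes were detected, and together they held 4.96% ± 1.08 of assigned reads (SD, n = 2). Replicate 1 had 4.20%, with a 95% Wilson interval of 4.17% to 4.22%, and replicate 2 had 5.73%, with 5.69% to 5.76%. The median of their mean levels was 1359 CPM, against 89.4 CPM over the 442 detected genes. Only uniquely placed reads enter these values. Hairpins with copies elsewhere in the genome lose reads this way, and the members share no such sequence on their own strand. The share, the median comparison and the ranks below may therefore be too favourable to the set. Intervals cover counting error only and not the difference between libraries. Reads copied by PCR are not independent molecules, so the intervals may be too narrow even for counting error. The set was very uneven, and Mir770 alone supplied 84.6% and 88.7% of its reads.

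**Figure D1:**
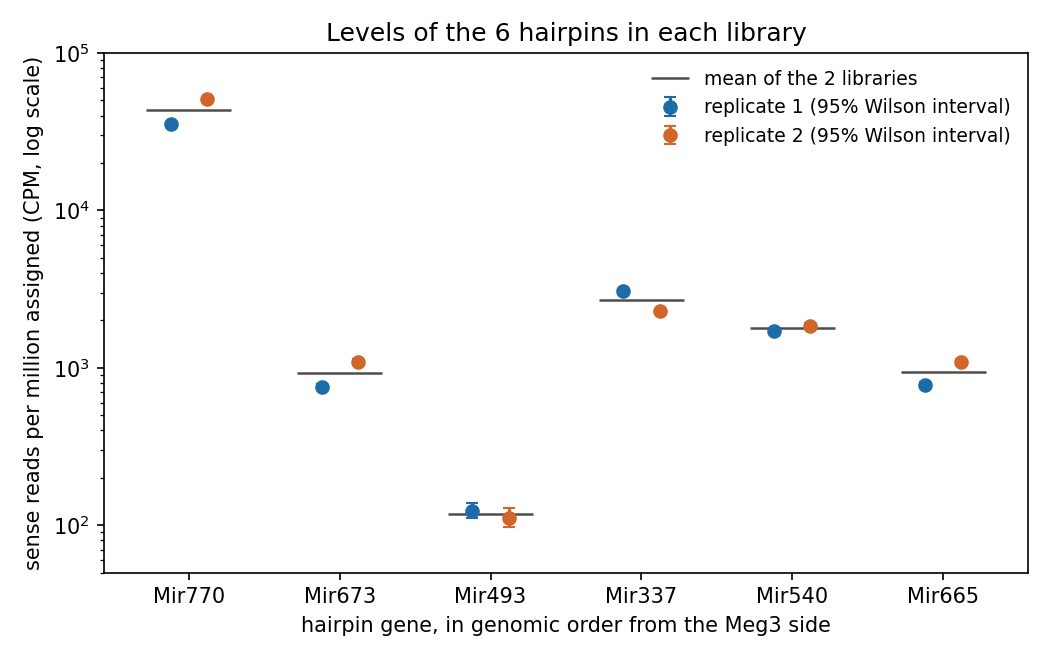
Level in CPM (log scale) of each hairpin gene, in genomic order, in replicate 1 (blue) and replicate 2 (orange), with 95% Wilson intervals for counting error and the mean as a bar. Mir770, at 35510 and 50806 CPM, stands above the other 5 genes, Mir673 and Mir665 lie at the same level, and Mir493 is lowest.

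Mir770, the member inside Meg3, had 95093 reads in replicate 1 and 88915 in replicate 2, or 35510 and 50806 CPM (43158 ± 10816, SD, n = 2). The counting intervals of the libraries, 35289 to 35733 and 50482 to 51133 CPM, are far apart, so the SD rests on the difference between libraries and not on depth. By mean level of uniquely placed reads it ranked 5 of all 2202 genes. Genes with copies elsewhere may be counted too low, so the true place of Mir770 among cortical miRNAs is not settled by this rank. Directly above Mir770 stood Mirlet7g, of the let-7 family that accumulates with differentiation, at 64893 ± 4752 CPM. Directly below it stood Mir127, at 38663 ± 2376 CPM, a hairpin opposite Rtl1 known to target the Rtl1 transcript. The levels of Mir770 in the libraries lie on both sides of those of Mir127, 40343 and 36983 CPM, so the order of these genes is not settled.

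Mir337 had 8207 and 4039 reads, or 3065 CPM in replicate 1 and 2308 CPM in replicate 2 (2686 ± 535, SD, n = 2), and ranked 68. Mir540 had 4588 and 3247 reads, or 1713 and 1855 CPM (1784 ± 100.5), and ranked 82. These hairpins, 195 bases apart, follow Mir770 in level, and their ranges over the libraries do not overlap. The genes directly beside Mir337 in level were Mir30e at 2702 ± 756 CPM and Mir125b-1 at 2686 ± 29.9 CPM, and those beside Mir540 were Mirlet7f-2 at 1912 ± 157 CPM and Mir7b at 1765 ± 92.6 CPM. The levels of each of these genes over the libraries overlap those of the member beside it.

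Mir665 had 2092 and 1901 reads, or 781 and 1086 CPM (934 ± 216, SD, n = 2). Mir673 had 2030 and 1902 reads, or 758 and 1087 CPM (922 ± 232). The ratio of Mir665 to Mir673 was 1.03 in replicate 1 (exact 95% interval 0.969 to 1.10) and 0.999 in replicate 2 (0.937 to 1.07), so they did not differ beyond counting error in either library, although they lie on different sides of Mir493. Mir497, Mir181a-1 and Mir412 were the genes nearest in level, at 957 ± 71.5, 926 ± 203 and 880 ± 60.8 CPM.

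Mir493 was the lowest of the set, with 331 and 195 reads, or 124 and 111 CPM (118 ± 8.61, SD, n = 2). Mir345 and Mir25 lay directly above and below it at 118 ± 0.875 and 114 ± 3.86 CPM. It stands between Mir673 and Mir337, which were both several times higher, so level did not follow position along the locus. The order of the 6 genes, Mir770, Mir337, Mir540, then Mir665 and Mir673 together, then Mir493, was the same in both libraries apart from the tied pair. Levels are per hairpin and were not divided by length. Per base of hairpin the order differs only in that Mir673, at 10.1 CPM, comes before Mir665, at 9.93 CPM.

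Between the highest and the lowest member the ratio within a library averaged 372 ± 119 (SD, n = 2). It was 287 in replicate 1 (exact 95% interval 258 to 321) and 456 in replicate 2 (396 to 527). Mir770 stood 11.6-fold above Mir337 in replicate 1 (11.3 to 11.9) and 22.0-fold in replicate 2 (21.3 to 22.7). It stood 20.7-fold and 27.4-fold above Mir540, 45.5-fold and 46.8-fold above Mir665, and 46.8-fold and 46.7-fold above Mir673. Within the tight group, Mir337 stood 1.79-fold (1.73 to 1.86) and 1.24-fold (1.19 to 1.30) above Mir540. The proportions of the set were thus partly kept. Of 15 pairs, 5 had ratios whose counting intervals overlapped between the libraries, among them the 3 pairs within Mir770, Mir673 and Mir665. The rest were Mir337 and Mir540, each with Mir493, whose few reads, 331 and 195, make those intervals wide. How often pairs of other genes overlap was not computed.

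Set against replicate 2, the levels in replicate 1 passed the threshold for none of the 6 genes, with the threshold at a Benjamini-Hochberg adjusted p under 0.05 and at least a doubling or halving. A two-sided Fisher's exact test was run per gene and adjusted over the 542 genes that reached 2 CPM in at least 1 library. It sets these libraries against each other and says nothing of conditions. Over all tested genes 65 (12.0%) passed. By adjusted p alone 5 of the 6 genes did, against 229 of 542 (42.3%). With unadjusted p under 0.05 it was also 5 of the 6, against 255 of 542. At this depth small differences pass a test that knows only counting error, so the size of the ratio is the more useful value.

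Mir770, Mir673 and Mir665 were lower in replicate 1 by nearly the same factor. Their log2 ratios of replicate 1 over replicate 2 were -0.52 (95% counting interval -0.53 to -0.50), -0.52 (-0.61 to -0.43) and -0.48 (-0.57 to -0.39). The adjusted p of the Fisher test was 2.07e-28 for Mir673 and 2.99e-24 for Mir665, and that of Mir770 was too small for the arithmetic to hold. Mir337 went the other way, with a log2 ratio of 0.41 (0.35 to 0.46) and an adjusted p of 9.38e-50 by the same exact test. Mir540, between Mir337 and Mir665 on the chromosome, had -0.11 (-0.18 to -0.05) with an adjusted p of 0.00166 by Fisher's exact test. Mir493 had 0.15 (-0.11 to 0.41) with an adjusted p of 0.394 by Fisher's exact test, and its interval includes 0.

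**Figure D2:**
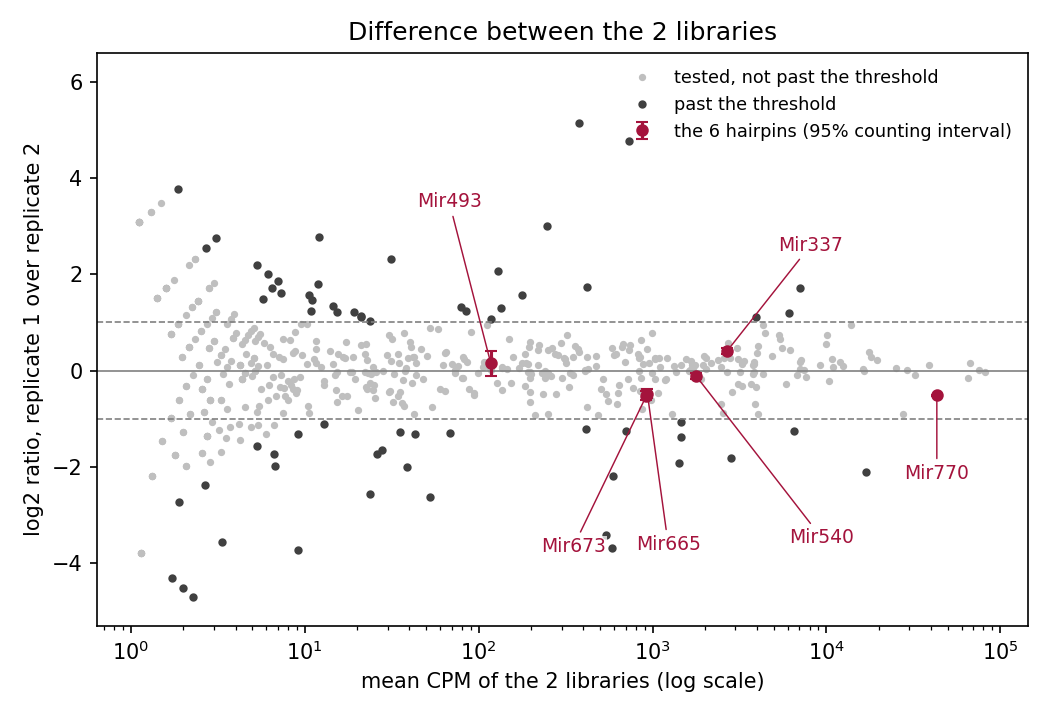
Log2 ratio of replicate 1 over replicate 2 against mean CPM (log scale) for the 542 tested genes, with those past the threshold in black and the 6 hairpins in red with 95% counting intervals. All 6 lie between the dashed lines at a log2 ratio of -1 and 1, with Mir770, Mir673 and Mir665 together near -0.5 and Mir337 at 0.41.

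The median size of the log2 ratio was 0.44 over the 6 genes, against 0.46 over all tested genes and 0.35 over the 442 genes detected in both libraries, as the 6 were. Its signed median was -0.30, against 0.09 over all tested genes. The difference in the summed share of the set came from Mir770: the other 5 genes together took 0.644% of assigned reads in replicate 1, with a 95% Wilson interval of 0.635% to 0.654%, and 0.645% in replicate 2, with 0.633% to 0.657%. Within that sum Mir337 and Mir493 had the larger level in replicate 1, and Mir673, Mir540 and Mir665 in replicate 2.

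The hairpins can be read against the rest of the imprinted region. From the start of Meg3 to the end of Mirg, the plus strand holds 59 listed miRNA genes, of which 52 were detected, including 46 of the 53 outside the set. The set held 19.2% of the region's reads in replicate 1 and 25.1% in replicate 2 (22.1% ± 4.17, SD, n = 2), and Mir770 alone 16.2% and 22.3%. The median of the mean levels was 1359 CPM for the 6 genes and 422 CPM for the other 53, of which 6 had no read in either library. The set was not above each part of the region, whose medians were 2861 CPM opposite Rtl1, 1505 CPM in Rian and 1571 CPM in Mirg. Between Rian and Mirg the median was 284 CPM, and for the other hairpins before Rtl1 it was 12.9 CPM. Of the 46 others tested, 3 passed the threshold, and all 3 were higher in replicate 1. Within the region Mir770 ranked 1, Mir337 14, Mir540 20, Mir665 26, Mir673 27 and Mir493 43 by mean level. Mir770 was above Mir127 in replicate 2 only, and Mir127 was the highest of the region in replicate 1.

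**Figure D3:**
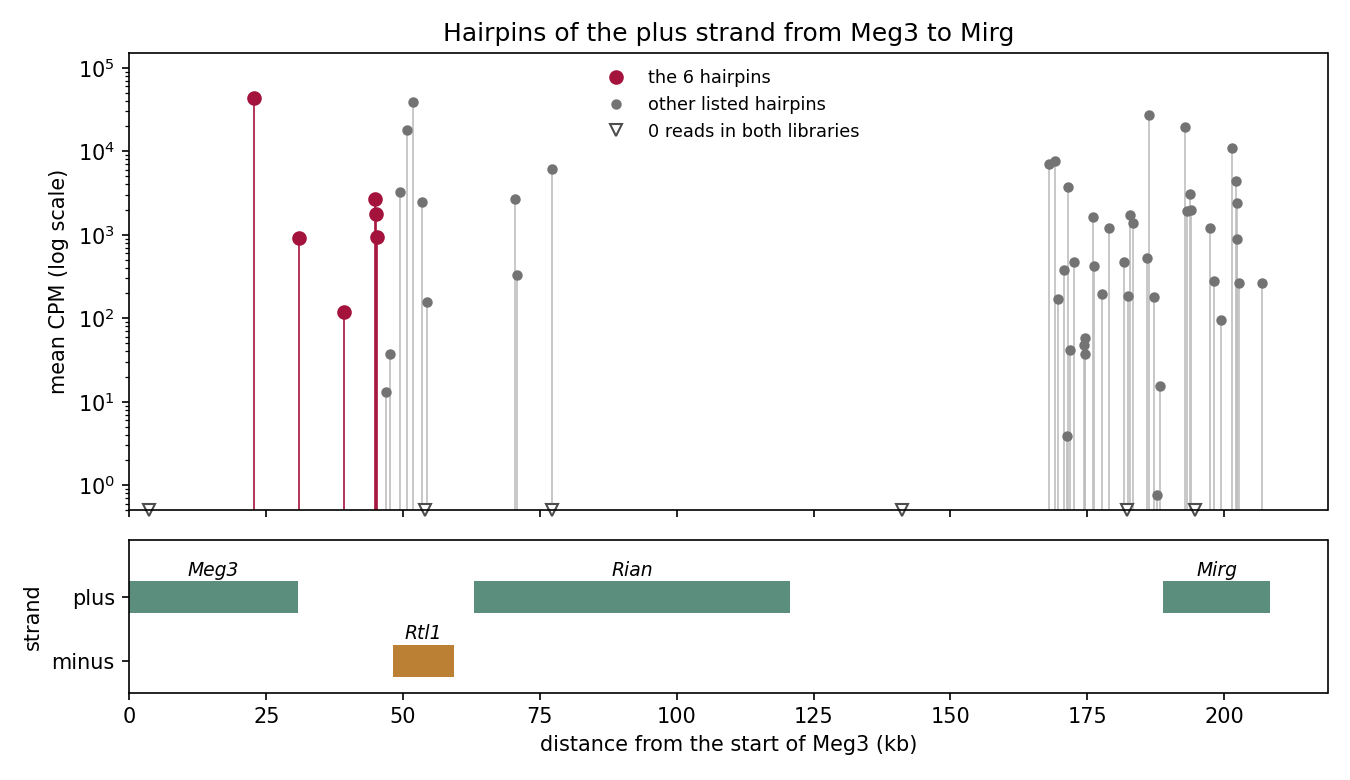
Mean CPM (log scale) of the 59 listed plus-strand hairpins against distance from the start of Meg3 in kb, with the 6 hairpins in red, hairpins at 0 reads as open triangles, and the long genes of the region drawn to scale below by strand. Mir770 has the highest mean, 43158 CPM, beside Mir127 at 38663 CPM, and the other 5 range from 118 to 2686 CPM.

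The hairpins opposite Rtl1, next along the chromosome, held 30.4% and 25.8% of the region's reads, led by Mir127, by Mir433 at 18165 ± 2563 CPM and by Mir431 at 3262 ± 241 CPM (SD, n = 2). All 5 tested genes there had a log2 ratio above 0, while 4 of the 6 genes of the set had a ratio below 0. Signs near 0 depend on the scaling. Mir434, opposite Rtl1, had 0.066, below the median of 0.09 over all tested genes. DESeq2 size factors moved the ratio of Mir770 from -0.517 to -0.585, and the same shift takes Mir434 below 0. Of the region's 46 tested genes outside the set, 29 had a ratio above 0 and 17 below. No gene of the set or of those opposite Rtl1 passed the threshold. Hairpins in Rian held 5.39% and 2.81%, led by Mir370 at 6089 ± 3364 CPM, Mir341 at 2679 ± 489 CPM and Mir1188 at 331 ± 55.2 CPM. Those between Rian and Mirg held 21.4% and 27.7%, led by Mir487b at 27442 ± 11807 CPM, Mir411 at 7673 ± 533 CPM and Mir379 at 7036 ± 646 CPM. Those in Mirg held 23.6% and 18.5%, led by Mir382 at 19521 ± 2140 CPM, Mir541 at 10791 ± 1285 CPM and Mir409 at 4337 ± 1955 CPM. The share of the set was the higher in replicate 2, as was that of the hairpins between Rian and Mirg, and with 1 group these differences have no test over animals.

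**Figure D4:**
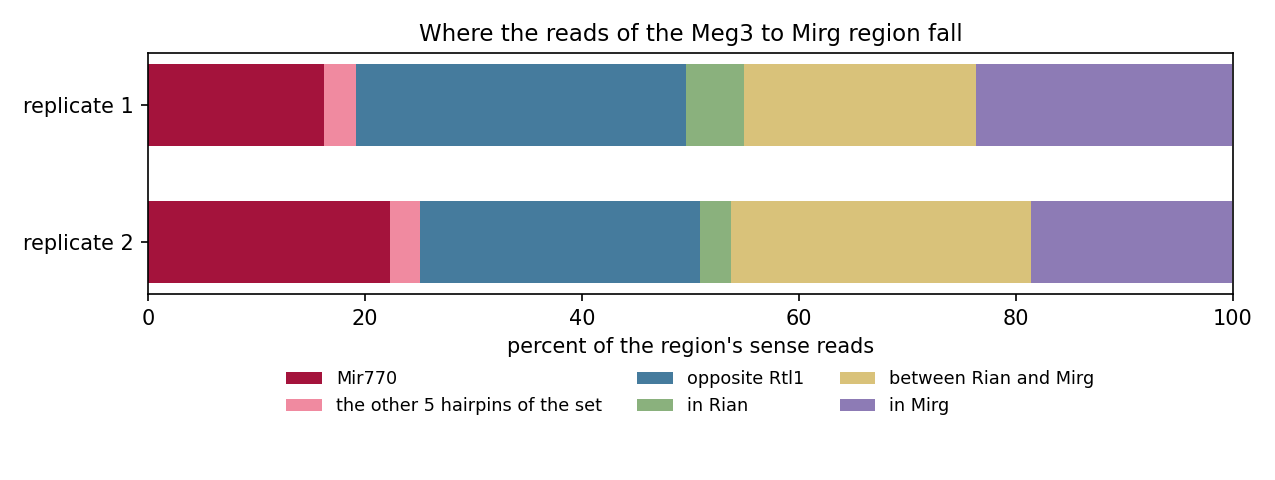
Percent of the region's sense reads taken by Mir770, by the other 5 hairpins of the set and by the hairpins opposite Rtl1, in Rian, between Rian and Mirg and in Mirg, in replicate 1 (top) and replicate 2. Other hairpins before Rtl1, at 0.0224% and 0.0228%, are too few to draw, and the dark red part for Mir770 measures 16.2% and 22.3%.

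Other hairpins listed between the start of Meg3 and the first hairpin opposite Rtl1 had few reads. Mir1906-1, also inside Meg3 and with a copy of its mature sequence on chromosome X, had 0 reads in both libraries, which sets no upper limit on its level, since reads that match both copies are assigned to neither. Mir3070a and Mir3070b, which lie between Mir665 and Rtl1 and have near-identical sequence, had 31 and 25 reads and 100 and 66 reads, or 12.9 ± 1.92 and 37.5 ± 0.262 CPM (SD, n = 2). These are lower limits for the same reason.

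Mir337 is the member whose count depends on the strand. Its hairpin is shown with the 61 bases that lie opposite Mir3544, a hairpin annotated on the minus strand, in capitals.
Mir337: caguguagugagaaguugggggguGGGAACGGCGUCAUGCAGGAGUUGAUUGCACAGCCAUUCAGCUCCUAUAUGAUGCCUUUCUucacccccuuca
The sense column gave 8207 and 4039 reads to Mir337 and 0 and 1 to Mir3544, whereas the unstranded column gave 0 reads to both genes in both libraries. On the antisense strand Mir337 had 0 and 1 reads. The reads thus lay on the plus strand, and without strand they were left among the ambiguous ones, of which they would make up 4.54% and 3.71%. The other 5 genes had the same count with and without strand, and no antisense read.

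The Mir770 hairpin is shown because its composition sets it apart within the set, with each copy of CACGUG in capitals.
Mir770: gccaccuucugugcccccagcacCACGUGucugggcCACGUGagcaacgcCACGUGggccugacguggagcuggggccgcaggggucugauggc
CACGUG, which reads the same on both strands, starts at positions 24, 37 and 51 of the hairpin, and the copies do not overlap. It occurs in 10 of the 1005 hairpins of the RefSeq table (0.995%), and Mir770 is the only 1 of these with more than a single copy. CACGUG is the only motif counted, and it recurs in this hairpin, so its rarity in the table is a description and not a test. The hairpin holds 70.2% G and C, more than 97.5% of the hairpins in the table, whose median is 51.7%. Mir673 and Mir540 hold 61.5% and 61.2%, Mir665 and Mir493 53.2% and 53.0%, and Mir337 52.6%. The predicted folding energy was lowest for Mir770, at -58.2 kcal/mol or -0.62 per base, and ranged from -49.4 to -40.9 kcal/mol in the other 5. Mir540, the shortest hairpin with 67 bases, had -0.61 per base. These are descriptions of the sequences, and their part in the counts was not tested.

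None of the 6 hairpins shares a stretch of 20 bases on the same strand with another hairpin of the table, and Mir337 shares such stretches on the opposite strand with Mir3544 alone. Reads mapped to more than 1 place, which are assigned to no gene, were 51.2% and 49.2% of mapped reads.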

How the data were processed

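The 2 small RNA libraries of left cerebral cortex from male mice were analysed, with group and replicate numbers from the labels. Per the text files the authors deposited beside the tables, reads were counted for each miRNA gene of GENCODE M21 on mm10, and the values are raw counts. Aligner, counter and trimming were not given in the sources used here. A file has 3 count columns: unstranded, sense and antisense. The sense column was used, divided by its sum over the 2202 genes. The 4 rows that name no gene were left out: unmapped reads were 25.5% of reads in replicate 1 and 42.4% in replicate 2, those mapped to more than 1 place 38.2% and 28.3%, and those outside listed genes 6.93% and 5.74%.

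M21 matched all 2202 identifiers, and the RefSeq hairpins had the M21 coordinates and sequence for all 6 members. Each log2 ratio divides replicate 1 by replicate 2 after adding 0.5 reads. The two-sided Fisher's exact test, adjusted over all genes reaching 2 CPM in at least 1 library, was checked on simulated data. Interval types are exact binomial for ratios and Wilson for shares. TMM (edgeR 4.0.16) and size factors (DESeq2 1.42.0, R 4.3.3) served as other scalings. RNAfold 2.7.2 gave folding energies, and Python 3.11.15 with scipy 1.17.1 and pandas 2.3.3 the rest.

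The members and lists were chosen with earlier results of these data known. Named beside the members were hairpins between the start of Meg3 and the first opposite Rtl1 or overlapping a member, the 3 highest of each other position group, the nearest genes in level, and hairpins sharing a seed. With 2 libraries no measure of likeness in pattern to other genes was computed.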

Additional observations from a re-analysis of the deposited data

How the results depend on the processing

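The 6 genes were tried with the unstranded column, TMM totals, DESeq2 size factors, all mapped reads as total, other filters on low counts, no minimum ratio, 5 reads added, and without each replicate. Their log2 ratios kept their direction wherever they could be computed, and no gene passed the full threshold under any of these. Without the minimum on the ratio, 5 of the 6 and 229 of all genes passed. With all mapped reads as the total, the share of the set was 2.00% instead of 4.96%. Mapped reads assigned to no gene, mostly those mapped to more than 1 place, then count in the total. With the unstranded column Mir337 had 0 reads, so it gave no log2 ratio and the set no ratio of highest to lowest. Over all genes 53 to 64 passed under the remaining settings, against 65 in the main one. Without each replicate in turn, the share of assigned reads was 4.20% to 5.73%, the share of the region's reads 19.2% to 25.1%, and the ratio of highest to lowest 287 to 456. Leaving out a replicate leaves no library to compare, so it gave no test. No paired analysis was possible because there is 1 group. Mir493, with 331 and 195 reads, is the gene whose ratio depth limits most.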
